A study of Mus musculus with 6 samples.

Results

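The genes described here are 7 ligands of the epidermal growth factor (EGF) family, Areg, Ereg, Hbegf, Tgfa, Egf, Btc and Epgn, and 3 receptors of the ERBB family, Egfr, Erbb2 and Erbb3. They were chosen by name, and each of the 10 names matched 1 row of a deposited table of 28154 genes. The table comes from RNA sequencing of 4T1, a mouse mammary carcinoma cell line, with 3 control libraries and 3 libraries of cells treated with corticosterone, the main glucocorticoid hormone of rodents. For dose, duration of treatment, passage and culture medium, the sources used here give no value. Nothing in the labels says that replicates were separate cultures, so p-values measure only the spread between these libraries. The comparison asks whether corticosterone altered the transcript levels of the ligands and receptors in these cells.

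EGF family ligands are made as membrane proteins whose outer part is cut off by proteases of the ADAM family, and the freed part binds receptors on the same or a neighbouring cell. Ligand binding joins ERBB receptors in pairs, and the paired kinases signal through the RAS-ERK and PI3K-AKT cascades. EGFR binds all 7 of these ligands, ERBB2 has no known soluble ligand and acts as a partner, and ERBB3 binds neuregulins and has a nearly inactive kinase. In the mammary gland, amphiregulin, the product of Areg, acts downstream of oestrogen in duct growth, and ERBB2 is known as the receptor amplified in a class of human breast cancers.

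All 10 genes had enough counts to be tested, and 0 of 10 passed (edgeR quasi-likelihood test, adjusted p under 0.05), where 2.82% of all 17283 tested genes did. In 4T1 cells the transcripts of Hbegf, Areg and Tgfa made up almost all ligand signal, and Erbb2 led the receptors. Under corticosterone Areg was about 15% lower on the fitted scale (0.850-fold, 95% interval 0.747 to 0.967) and Erbb3 1.245-fold higher (1.07 to 1.45). In counts scaled to library depth the groups of both genes did not overlap, as was so for 22.2% of all tested genes. Neither difference passed after adjustment over all genes.

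The ligand genes Epgn, Ereg, Areg and Btc lie within 376 kb of chromosome 5 (91027464 to 91402994, GRCm38), the first 3 on the plus strand and Btc on the minus strand. Areg was by far the most abundant of the 4, so the 250 bases before the RefSeq start of Areg are shown beside those of its neighbours Epgn and Btc. They are taken from RefSeq (GRCm38.p6), where 7 of the 10 genes had an entry, Ereg not among them. Each is written 5′ to 3′ on the gene's own strand, with matches to the searched motifs in capitals. For Areg and Btc the RefSeq start is that of the deposited table, whereas for Epgn the table starts the gene earlier, so the last 53 bases of its window lie inside the gene as the table has it.

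Areg (chr5:91139349-91139598, plus strand): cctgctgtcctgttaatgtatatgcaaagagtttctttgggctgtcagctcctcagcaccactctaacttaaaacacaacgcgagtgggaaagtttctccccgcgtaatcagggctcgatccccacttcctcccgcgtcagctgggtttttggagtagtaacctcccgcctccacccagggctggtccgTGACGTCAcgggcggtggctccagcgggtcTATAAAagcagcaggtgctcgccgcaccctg

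Epgn (chr5:91027267-91027516, plus strand): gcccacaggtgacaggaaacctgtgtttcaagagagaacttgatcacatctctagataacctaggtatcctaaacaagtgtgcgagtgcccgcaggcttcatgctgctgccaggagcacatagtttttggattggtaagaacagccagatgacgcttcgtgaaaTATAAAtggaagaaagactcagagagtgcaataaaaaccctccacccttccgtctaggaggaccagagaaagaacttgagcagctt

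Btc (chr5:91402995-91403244, minus strand): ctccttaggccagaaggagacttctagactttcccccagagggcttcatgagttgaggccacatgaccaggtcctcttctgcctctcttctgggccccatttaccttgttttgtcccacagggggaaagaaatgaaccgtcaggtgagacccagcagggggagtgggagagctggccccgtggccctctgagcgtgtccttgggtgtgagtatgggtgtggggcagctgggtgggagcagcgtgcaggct

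The motifs searched, on both strands, were the cAMP response element (TGACGTCA), the AP-1 site (TGANTCA), the glucocorticoid response element (GNACANNNTGTNC) and the TATA box (TATAAA), and none of the matches overlapped another. The Areg window held a cAMP response element that begins 61 bases before the start and a TATA box that begins 31 bases before it. Of 32851 promoter windows of the same length, 1.55% held the cAMP response element and 12.4% the TATA box. The Epgn window held a TATA box that begins 86 bases before the RefSeq start and 33 bases before the start in the table, and the Btc window held no match. The glucocorticoid response element, present in 0.387% of all windows, and the AP-1 site, present in 6.75%, had no match in the 8 windows of the 7 genes with an entry (Egf has 2). These matches are letters in a window, and binding was not measured.

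The libraries held 62175495 to 66249288 counts. Among the treated libraries, corticosterone replicate 2 stood apart: 3670 genes passed without it, against 487 with all 6 libraries. The known glucocorticoid target Per1 was at 18.4, 20.5 and 20.1 CPM (counts scaled to library depth) in control replicates 1, 2 and 3 and 62.65, 71.1 and 65.3 CPM in corticosterone replicates 1, 2 and 3, far higher in each treated library. The summed level of 7 epithelial markers (an eighth, Krt5, has no row) was 3971 to 4180 CPM in controls and 3644 to 4355 CPM with corticosterone. Markers of other cell types were far lower in sum: 53.1 to 64.7 CPM over both groups for 7 immune markers and 141 to 159 CPM for 8 fibroblast ones. The sum of 4 endothelial markers was 1.37 to 2.01 CPM in controls and 0.700 to 0.843 CPM with corticosterone, without overlap. Of the tested markers 0 of 5 immune, 0 of 1 endothelial and 0 of 7 fibroblast genes passed (edgeR), and the endothelial one, Pecam1, had a log2 fold change of -0.9994 (edgeR, adjusted p = 0.106, and 0.0414 without corticosterone replicate 2). Of 7 tested epithelial markers 0 passed (edgeR, with 1 at an unadjusted p under 0.05, against 17.0% of all genes). The keratins Krt7, Krt14 and Krt18, 3 of these 7, fell without corticosterone replicate 2 (edgeR). In that fit 20.5% of all genes passed in either direction. Of the adipocyte markers, Plin1 and Lep have no row and Adipoq had too few counts to be tested. The remaining one, Fabp4, which macrophages also express, rose from 0.555 ± 0.156 to 2.87 ± 0.236 CPM (log2 fold change 2.36, edgeR, adjusted p = 0.00285). The part of other cells in the results was not tested.

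Levels between genes are compared in FPKM, the deposited fragment counts divided by transcript length and library depth. In controls the order was Hbegf (22.6 ± 1.11 FPKM, SD, n = 3), Areg (18.5 ± 0.142), Erbb2 (11.2 ± 0.306), Tgfa (10.2 ± 0.649), Erbb3 (4.35 ± 0.474), Btc (0.921 ± 0.106), Egfr (0.445 ± 0.0386), Ereg (0.370 ± 0.133), Epgn (0.231 ± 0.0603) and Egf (0.0405 ± 0.00785). The treated libraries gave the same order. Neighbours in this order were apart in every library of a group except Egfr with Ereg and Ereg with Epgn, whose values overlapped in both groups. Among the tested genes, Hbegf stood at percentile 87.0 of control FPKM, Erbb3 at 54.3, Egfr at 23.1 and Egf at 3.01.

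**Figure D1:**
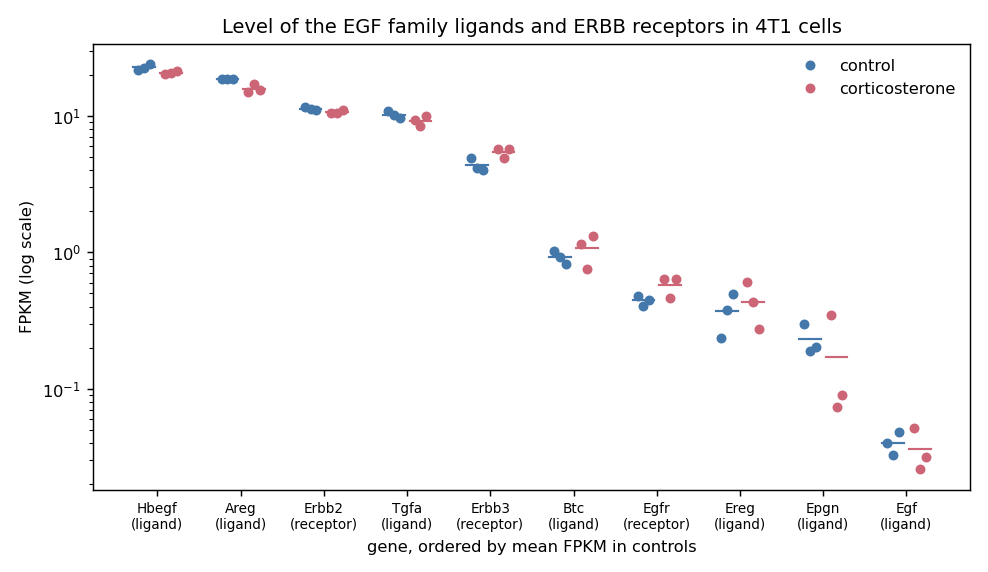
FPKM of the 10 genes in each library (points, log axis) with the group mean (line), ordered by the mean in controls. Hbegf, Areg, Erbb2, Tgfa and Erbb3 lie above 4 FPKM in all 6 libraries, and the other genes at or below 1.32 FPKM.

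Hbegf, Areg and Tgfa together gave 97.0% to 97.1% of the summed ligand FPKM in the control libraries and 95.4% to 97.3% in the treated ones. Egf, which names the family, gave at most 0.111% in any library. Erbb2 gave 68.3%, 71.0% and 71.1% of the summed receptor FPKM in controls and 62.3%, 66.02% and 63.2% with corticosterone, and Egfr gave between 2.58% and 3.797%. Most of the receptor transcript level of 4T1 cells was thus Erbb2 and Erbb3.

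Among the abundant ligands, Areg encodes amphiregulin and lies at 91139599 to 91148432 on chromosome 5. Its level was 25.6, 25.4 and 25.5 CPM in control replicates 1, 2 and 3 and 20.2, 23.7 and 21.04 CPM in corticosterone replicates 1, 2 and 3. All treated libraries were lower than all controls, and corticosterone replicate 2 was nearest to them. The log2 fold change was -0.24 (SE 0.081, 95% interval -0.42 to -0.05; edgeR, adjusted p = 0.193). The coefficient of variation of FPKM was 0.766% in the 3 controls and 6.94% in the treated libraries. Counting error alone gives 1550 to 1709 for the 1628 counts of control replicate 1 (exact Poisson 95% interval). That range is wider than the spread of the control counts (1628, 1657 and 1662), so their closeness is no measure of precision.

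Hbegf encodes heparin-binding EGF-like growth factor, which also serves as the entry receptor of diphtheria toxin in human cells, and lies on chromosome 18 (36504927 to 36515805). It was at 118, 121 and 131 CPM in controls and 109, 114 and 115 CPM with corticosterone. The treated libraries were again all lower, although corticosterone replicate 3 and control replicate 1 were close. The log2 fold change was -0.13 (95% interval -0.27 to 0.00029; edgeR, adjusted p = 0.294).

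Tgfa encodes transforming growth factor alpha and lies on chromosome 6 (86195223 to 86275719). It was at 79.7, 73.7 and 70.9 CPM in controls and 67.6, 62.1 and 72.3 CPM with corticosterone. The groups overlapped, because corticosterone replicate 3 exceeded control replicate 3. The log2 fold change was -0.15 (95% interval -0.32 to 0.021; edgeR, adjusted p = 0.353). Added up, the FPKM of the 7 ligands came to 52.3 to 53.4 in controls and 46.5 to 48.6 with corticosterone. This sum was carried by Hbegf, Areg and Tgfa, which did not pass (edgeR), and its difference was not tested.

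The other ligands were scarce. Btc encodes betacellulin, a ligand of both EGFR and ERBB4, and was at 5.24, 4.70 and 4.198 CPM in controls and 5.84, 3.89 and 6.66 CPM with corticosterone. Corticosterone replicate 2 was below all controls and the other treated libraries above them, so no common direction was seen (log2 fold change 0.21, 95% interval -0.25 to 0.67; edgeR, adjusted p = 0.642).

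Ereg encodes epiregulin, and its values spread more within each group than between them. The counts were 70, 115 and 154 in control replicates 1, 2 and 3 and 175, 133 and 83 in corticosterone replicates 1, 2 and 3. Counting error alone gives 54.6 to 88.4 for the lowest control and 131 to 180 for the highest (exact Poisson 95% intervals, which cover counting error only), so the controls differed among themselves by more than counting error. The fitted log2 fold change of 0.22 had an interval from -0.57 to 1.02 (edgeR, adjusted p = 0.794).

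Epgn encodes epigen. Its counts were 39, 26 and 28 in controls and 45, 10 and 12 with corticosterone. Corticosterone replicate 1 was above every control and the other treated libraries were below every control, with a Poisson interval of 4.80 to 18.4 around the count of 10 and of 32.8 to 60.2 around that of 45. The log2 fold change was -0.45 (95% interval -1.83 to 0.92; edgeR, adjusted p = 0.749) and moved with each treated library: it was -1.50 without corticosterone replicate 1 (edgeR, adjusted p = 0.292), -0.098 without replicate 2 and -0.14 without replicate 3.

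Egf encodes the founding ligand, made mainly by salivary gland and kidney. It had 36, 29 and 43 counts in controls and 44, 24 and 28 with corticosterone, and the groups overlapped (log2 fold change -0.16, 95% interval -0.99 to 0.67; edgeR, adjusted p = 0.864). For Ereg, Epgn and Egf, differences within these wide intervals were not detectable with these libraries.

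**Figure D2:**
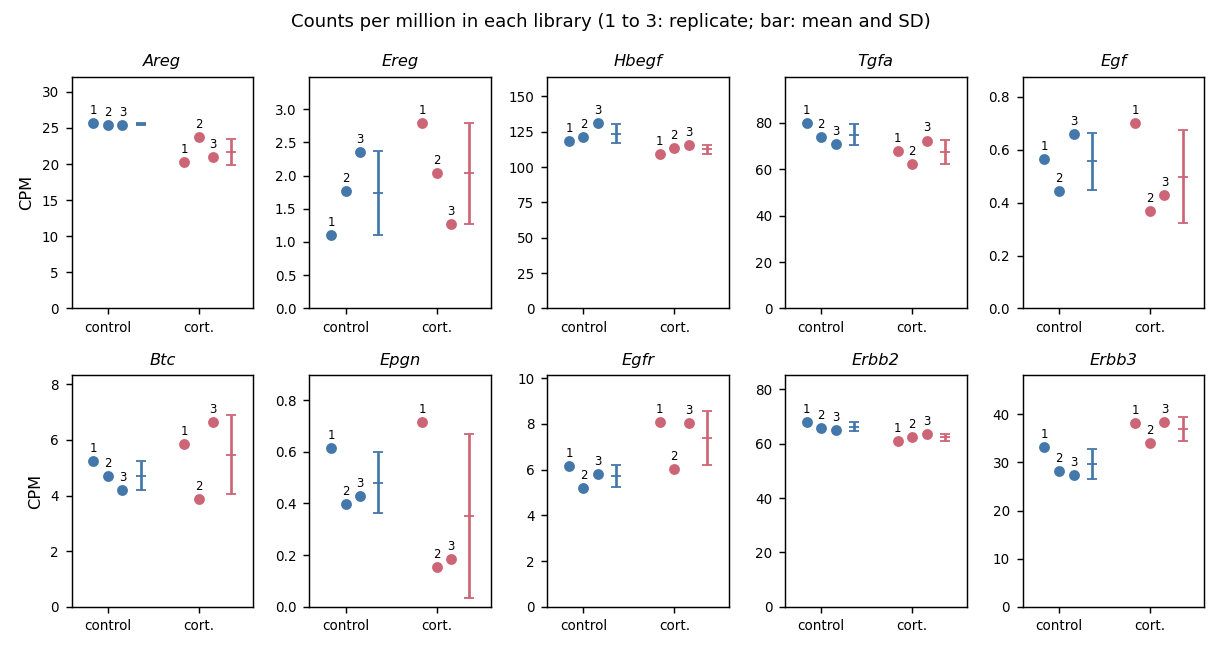
CPM (counts scaled to library depth, axes from 0) of each gene in control and corticosterone (cort.) libraries, numbered by replicate, with the group mean and SD beside the points. The groups are apart for Areg, Hbegf and Erbb2 (lower with corticosterone) and Erbb3 (higher), and overlap for the other 6 genes. Of all tested genes 22.2% had groups apart.

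Among the receptors, Erbb3 encodes the neuregulin receptor that recruits PI3K and lies on chromosome 10 (128567523 to 128589652, minus strand). It was at 33.2, 28.2 and 27.5 CPM in controls and 38.3, 34.0 and 38.4 CPM with corticosterone. All treated libraries were higher, but corticosterone replicate 2 exceeded control replicate 1 by little. The log2 fold change was 0.32 (SE 0.094, 95% interval 0.10 to 0.53; edgeR, adjusted p = 0.140), the lowest p of the 10 genes.

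Egfr encodes the EGF receptor itself and lies on chromosome 11 (16752203 to 16918158). It was at 6.17, 5.19 and 5.81 CPM in controls and 8.10, 6.02 and 8.06 CPM with corticosterone. Corticosterone replicates 1 and 3 stood above all controls, and replicate 2 fell within their range. The log2 fold change was 0.37 (95% interval 0.034 to 0.70; edgeR, adjusted p = 0.254).

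Erbb2 lies on the same chromosome (98412470 to 98437716). It was at 68.1, 65.7 and 65.1 CPM in controls and 60.9, 62.5 and 63.5 CPM with corticosterone. The groups did not overlap, yet the difference was small (log2 fold change -0.089, 95% interval -0.21 to 0.034; edgeR, adjusted p = 0.451). Within a library, the ratio of Erbb2 to Erbb3 FPKM, formed after the values were seen, was 2.37, 2.69 and 2.74 in controls and 1.84, 2.13 and 1.91 with corticosterone. These ratios do not overlap between the groups, and an exact permutation of 3 against 3 libraries cannot give a two-sided p under 0.1.

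In all, 4 of the 10 genes had a fitted change above 0 and 6 below 0, and the median of their log2 fold changes was -0.11 (9.62e-05 over all tested genes), and 0 of 10 reached a 2-fold change. In CPM 4 of 10 had groups without overlap, where 22.2% of all tested genes did. At an unadjusted p under 0.05 edgeR gave 3 of 10 (Erbb3, Areg and Egfr), against 17.0% of all genes. DESeq2 called Erbb3 higher (adjusted p = 0.0329), 1 of the 8 members to which it gave an adjusted p, against 8.10% of all genes. Limma on log2(FPKM + 1) called 0 of the 6 members that passed its filter, against 4.26% of genes.

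Without corticosterone replicate 2, 3 of the 10 genes passed: Areg (log2 fold change -0.31), Egfr (0.50) and Erbb3 (0.37), with edgeR adjusted p of 0.0168, 0.0227 and 0.0182. Of all genes 20.5% passed in that fit. When limma-voom weighted libraries by their quality, these 3 and Hbegf (-0.16) passed, against 27.3% of all genes. Corticosterone replicate 2 was the treated library nearest the control mean for 5 of the 10 genes, replicate 1 for 2 and replicate 3 for 3. What sets corticosterone replicate 2 apart was not tested.

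**Figure D3:**
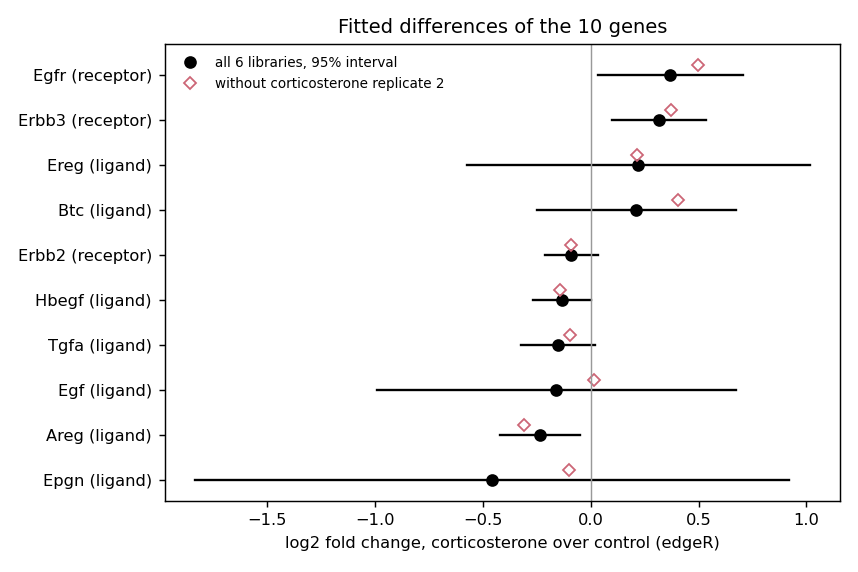
Fitted log2 fold changes, corticosterone over control, with 95% intervals (edgeR, all 6 libraries, black) and the values without corticosterone replicate 2 (open diamonds). The intervals are narrow for Erbb2, Hbegf, Tgfa and Areg and span over 1 log2 unit for Epgn, Egf and Ereg.

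The neighbours on chromosome 5 place the ligand levels in context. In controls Areg had 36.9 to 79.8 times the FPKM of Ereg, 62.3 to 97.4 times that of Epgn and 18.2 to 22.6 times that of Btc. The 4 ligands had no common sign, with 2 fitted values above 0 and 2 below. Within 500 kb on either side of the cluster were 19 other genes of the table, of which 12 were tested. Of these 12, 1 passed, where 2.82% of all tested genes did. The one that passed was Cxcl5, a neutrophil chemokine that lies on the Epgn side of the cluster (-380.2 kb from the start of Areg) and fell by 1.004 on the log2 scale (edgeR, adjusted p = 0.00432). The other chemokine genes of that stretch did not pass, with log2 fold changes of -0.32 for Cxcl2, -0.25 for Cxcl1, -0.041 for Pf4, 0.18 for Ppbp and 0.24 for Cxcl3 (edgeR, lowest adjusted p = 0.111, of Cxcl1).

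**Figure D4:**
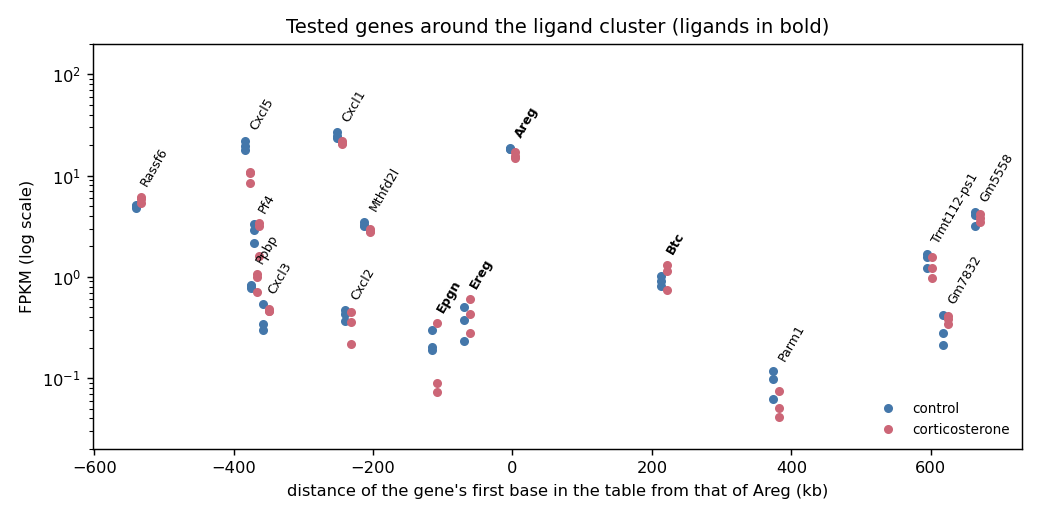
FPKM (log axis) of the 16 tested genes around the chromosome 5 ligands in each library, ligands in bold. Genes are placed by the distance of their first base (lowest coordinate, whatever the strand) from that of Areg. Areg is at 14.9 FPKM or higher in every library, while Epgn and Ereg stay at or below 0.602 FPKM.

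For the rest of the pathway, 90 genes in 6 lists were followed, chosen with earlier results of these data known. Of the 90 genes, 88 had a row and were tested. Of these 4 rose and 3 fell, against 1.35% of all tested genes that rose and 1.46% that fell, and their median log2 fold change was 0.057. Without corticosterone replicate 2, 22 rose and 12 fell, against 10.5% and 10% of all genes tested in that fit. Erbb4, the remaining receptor, and the neuregulin Nrg3 have no row in the table. Nrg1, a ligand of ERBB3 and ERBB4, was at 17.4 ± 1.21 CPM in controls and 20.0 ± 1.96 CPM with corticosterone, and Nrg2 had a log2 fold change of -0.39. Neither passed (edgeR, adjusted p = 0.347 and 0.492), and 0 of the 3 tested genes of this list did.

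In the list of 11 ligand shedding genes, 2 rose and 9 did not pass. Adam12, a metalloprotease known to cut HB-EGF, was at 61.7, 56.8 and 55.7 CPM in controls and 125, 106 and 124 CPM with corticosterone. All treated libraries were far above the controls (log2 fold change 1.03, SE 0.080; edgeR, adjusted p = 0.00106), and the call held without each library in turn. Adam8 rose from 40.2 ± 3.17 to 57.3 ± 0.665 CPM (log2 fold change 0.51; edgeR, adjusted p = 0.00971), a call lost without control replicate 2 or corticosterone replicate 1. Adam17, the main protease for Areg, Hbegf and Tgfa, was at 88.7 ± 5.33 CPM in controls and 81.8 ± 6.72 CPM with corticosterone (log2 fold change -0.12; edgeR, adjusted p = 0.490). The median of the list was 0.036.

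Of 20 genes that inhibit or degrade ERBB receptors, 1 fell and 19 did not pass, with a median of 0.094. In the fit without corticosterone replicate 2, 6 of the 20 rose and 4 fell (edgeR), where 20.5% of all genes passed in either direction. The gene that passed with all 6 libraries was Lrig1, a membrane protein that promotes the breakdown of ERBB receptors. Lrig1 went from 225 ± 9.09 to 189 ± 4.31 CPM (log2 fold change -0.25; edgeR, adjusted p = 0.0470). The call was near the threshold and it held only when the library left out was corticosterone replicate 2 (edgeR, highest adjusted p = 0.213). Errfi1 encodes MIG6, an inhibitor of the EGFR kinase, and was at 282 ± 21.6 CPM in controls and 276 ± 38.0 CPM with corticosterone (log2 fold change -0.029; edgeR, adjusted p = 0.917).

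Downstream, 0 of 20 genes of the adaptors and the RAS-ERK cascade passed (edgeR; 3 at an unadjusted p under 0.05, against 17.0% of all genes), with a median of 0.045. The lowest p belonged to Gab2, a docking protein (0.27), and Mapk3, which encodes ERK1 (-0.27). Likewise 0 of 16 genes of the PI3K, phospholipase C and STAT branches passed (edgeR; 3 at an unadjusted p under 0.05, also near that share), with a median of 0.034 and Pik3r2 (-0.27) and Akt1 (-0.13) at the lowest p.

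Of 18 genes that ERK signalling is known to induce, 2 rose and 2 fell, with a median of 0.049. Spry1, a Sprouty protein that inhibits ERK signalling, was at 64.2, 64.6 and 64.3 CPM in controls and 38.1, 36.35 and 32.7 CPM with corticosterone. The fall was seen in every treated library and held without each library in turn (log2 fold change -0.85; edgeR, adjusted p = 0.00128). Ier3 fell (-0.47) while Myc (0.35) and Fosl1 (0.34) rose, and these 3 calls were lost without any 1 control library or without corticosterone replicate 1. Spry1, Adam8, Lrig1 and Fosl1 overlap genes on the opposite strand, as do Ereg, Tgfa, Egf, Egfr and Erbb2. Since no source used here gives the strandedness, reads of the partners cannot be told apart.

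**Figure D5:**
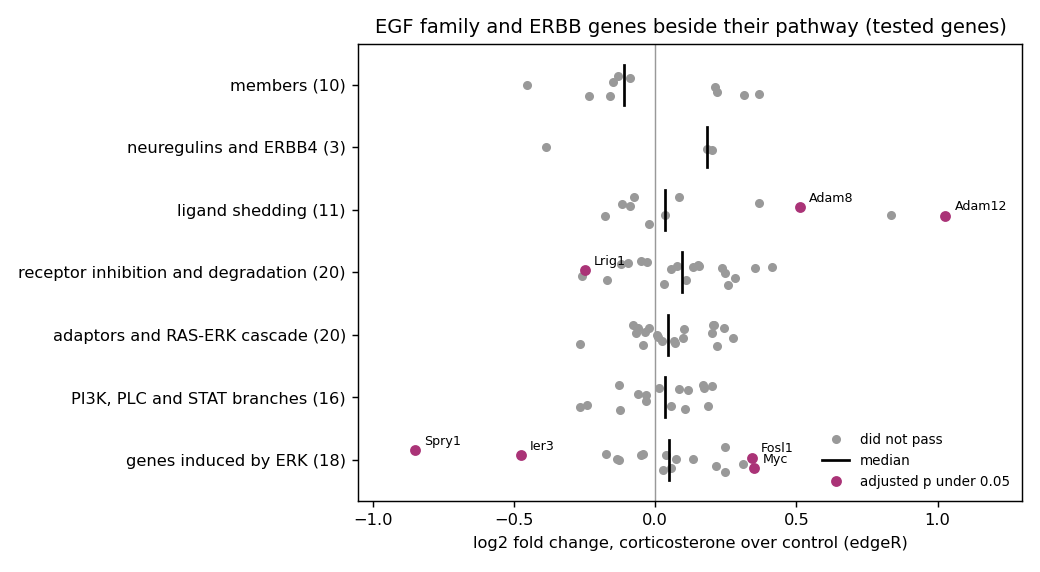
Log2 fold changes (edgeR) of the tested genes, 1 point a gene, for the 10 EGF family and ERBB genes (members) and the 6 pathway lists, with the median of each (black line). The 7 named genes passed at an adjusted p under 0.05, and the medians of the lists with over 10 genes lie between 0.034 and 0.094.

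The expressed genes (mean of at least 5 FPKM) whose values over the 6 libraries were most like those of Erbb3 were Sox9, a transcription factor, B3galnt2, a glycosyltransferase, and Irs2, an adaptor of insulin receptors. Likeness was the root mean square difference of log2 CPM relative to the control mean, 0.039, 0.042 and 0.045 for these genes among 7439 compared. Of the 3 only Irs2 passed (log2 fold change 0.35; edgeR, adjusted p = 0.0497). Because this likeness includes the difference between the groups, fold changes near that of Erbb3 follow from the choice. For Areg they were Ndufa3, a subunit of respiratory complex I, Htra1, a secreted serine protease, and Nipsnap1, with differences of 0.028, 0.028 and 0.029.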

How the data were processed

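The counts deposited by the authors are whole numbers per gene and library, per the file headers. The FPKM values beside them were computed by the authors, per the file headers. No source used here gives the counter, the aligner or the strandedness. A human build is named in the submitters' processing notes although the identifiers are those of mouse, and the 10 genes have the same coordinates in GENCODE M21 (GRCm38).

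Counts were filtered with filterByExpr (minimum count 10), scaled with TMM and fitted over 17283 genes with edgeR 4.0.16 (R 4.3.3), group as the only factor, and Benjamini-Hochberg adjustment over all of them. SE is the log2 fold change divided by the root of F, and 95% intervals use its t distribution. The procedure was tested on simulated data for 16819 genes. It detected 56.12% of the genes altered by a factor of 1.5. For genes altered by a factor of 2 the share was 72.92%. Both sizes were simulated together, and 5 unchanged genes were called wrongly in that run. Recovery of smaller changes, such as those fitted for the 10 members, was not tested. Alternatives used DESeq2 1.42.0 and limma 3.58.1.

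Named genes were the 10 members, up to 4 passing genes per list by p or the 2 of lowest p, Errfi1, Adam17, Erbb4 and Nrg1, and 3 genes alike to each of the 2 members of lowest p. Per1, Fabp4, Pecam1 and the keratins come from check and marker lists, and the chemokine genes from the region's genes after their values were seen. Members and lists were chosen with earlier results of these data known.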

Additional observations from a re-analysis of the deposited data

How the results depend on the processing

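With an adjusted p under 0.1 the number of members that passed stayed at 0, and 889 of all genes passed. Under the replicate block (the replicate number as a block) 0 members, 4 pathway genes (7 in the reported fit) and 237 of all genes (487) passed. No sign of pairing by number was seen: same-numbered deviations correlated at -0.0024, 0.032 and -0.066, and not every library correlated best with its own number. Deviations from a mean of 3 libraries constrain each other, so these values cannot decide whether same-numbered libraries were handled together. DESeq2 called 1 member, 14 pathway genes, 2 genes around the chromosome 5 cluster (1 in the reported fit) and 1131 of all genes. Limma-voom with library weights called 4, 39, 4 and 4724. With no low-count filter 4 pathway genes and 211 of all genes passed. Leaving out each library in turn gave 0 to 3 members, 2 to 34 pathway genes, 1 to 4 genes around the cluster and 88 to 3670 of all genes, the highest without corticosterone replicate 2 and the lowest of all genes without control replicate 2. The cause of these shifts was not tested.

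Of 127 member values under 14 alternative fits, 5 changed sign, all in scarce ligands. With library weights Egf was 0.25 and Epgn 0.22. Left-out libraries gave a range of -0.075 to 0.50 for Ereg and -0.48 to 0.017 for Egf. Areg, Hbegf, Tgfa, Btc, Egfr, Erbb2 and Erbb3 kept their sign in every fit that tested them. Epgn, Egf and Ereg had 10 to 175 counts a library, and libraries of Ereg and Epgn within a group differed by more than counting error.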
